A study of Mus musculus with 4 samples.

Results

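Transthyretin (Ttr), alpha-fetoprotein (Afp), albumin (Alb), retinol-binding protein 4 (Rbp4), transferrin (Trf) and the fibrinogen alpha, beta and gamma chains (Fga, Fgb, Fgg) are secreted proteins of blood plasma. These 8 genes were taken as a named set, and every probe set that the platform annotation gave to 1 of their symbols alone was used. Of the 8 genes, 7 were measured, by 14 probe sets, among 18193 genes and 45037 probe sets in all. Trf was not analysed here, because its 1 listed probe set also carried the symbol Srprb. The set was compared between mouse embryonic stem cells at day 0 and epiblast-like tissue at day 3 of SFEBq, a culture in which dissociated stem cells quickly re-aggregate and float in medium without serum. Each day had 2 samples of total RNA, hybridised as biotin-labelled cRNA to 1 Affymetrix array each. The labels gave no cell line, genotype or added agent, and described all 4 samples as differentiated stem cells, the day 0 samples included.

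In the mouse embryo, before the liver forms, many plasma proteins are made by the visceral endoderm, the epithelium that covers the epiblast, and later by the yolk sac. This epithelium takes up nutrients from outside the embryo through the endocytic receptors megalin and cubilin, and releases carriers such as transthyretin, retinol-binding protein and apolipoproteins. Factors shared with the liver, among them HNF4A and FOXA proteins, are known to act on these genes in both tissues. Albumin and fibrinogen are best known as products of hepatocytes.

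Of the 7 measured members, Ttr, Afp, Rbp4 and Fgb were higher at day 3, and Alb, Fga and Fgg were not called. The 4 higher members had day 3 minus day 0 differences of 4.32, 3.25, 2.01 and 1.38 on the log2 scale, and no member was called lower (limma, Benjamini-Hochberg adjusted p under 0.05; 0 lower also at an unadjusted p under 0.05). Over all genes, 20.9% were called higher and 21.4% lower, and 5.93% were called at least 2-fold higher, as all 4 of these members were. The median difference of the 7 members was 1.38, against 0.01 over all genes. These values take for each gene the probe set with the highest mean over the 4 arrays. At the level of probe sets, 10 of the 14 were called higher and 0 lower, where 14.2% of all probe sets were called higher and 16.7% lower. In bulk RNA a change in the number of cells of a type and a change in RNA per cell cannot be told apart. Nothing in the labels says whether the 2 samples of a day came from separate cultures, and where they did not, a p-value reflects technical spread alone.

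The duplicates were close. Their log2 values for the 14 probe sets differed by 0.016 to 0.83 at day 0 (median 0.18) and by 0.024 to 0.50 at day 3 (median 0.12). Values are log2 signals from the deposited table, and the arrays' first quartile over probe sets lay at 4.30 to 4.33. Levels close to or under that quartile may be background, as no detection calls were at hand. A level belongs to its probe set, so genes were compared by their differences between days and not by their levels.

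**Figure D1:**
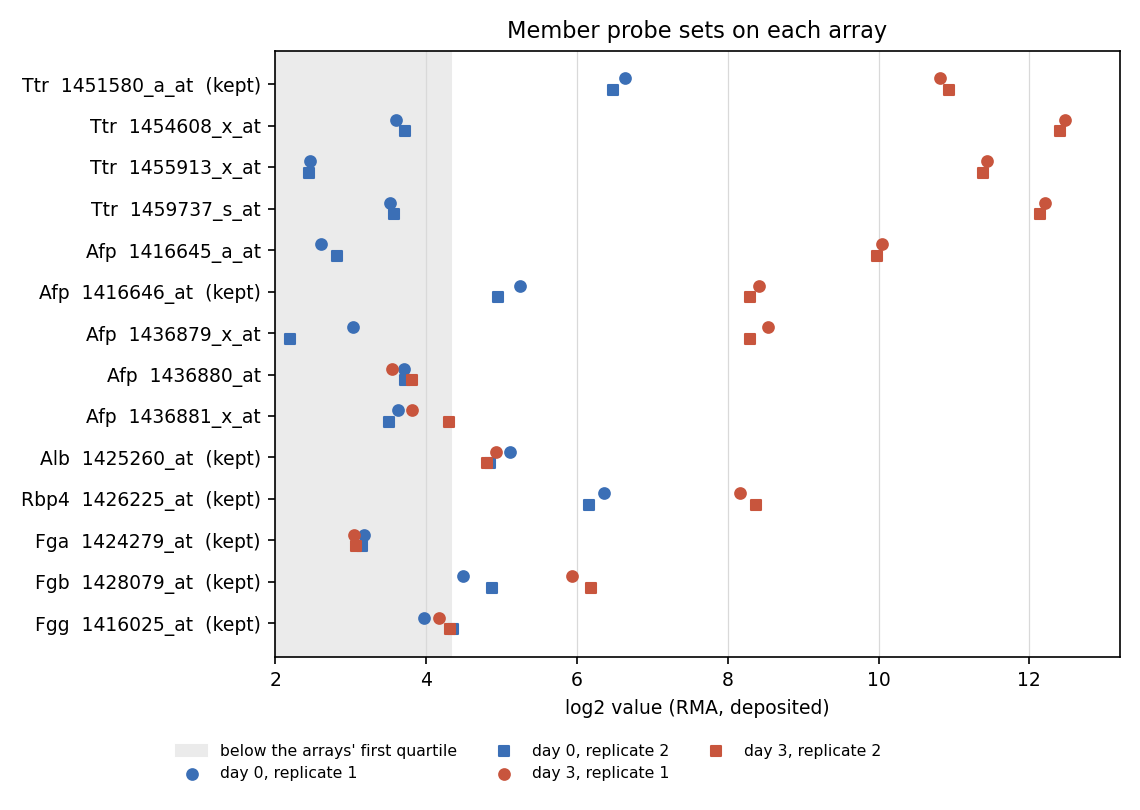
Log2 value (horizontal axis) of each of the 14 member probe sets on each of the 4 arrays, with day 0 in blue, day 3 in red, circles for replicate 1 and squares for replicate 2. The grey area lies below the arrays' first quartile (4.33), and "kept" marks the probe set used for the gene. All 4 Ttr probe sets and 3 of the 5 Afp probe sets moved far to the right at day 3, while the day means of Alb, Fga and Fgg differed by -0.12, -0.11 and 0.08.

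Ttr encodes the plasma carrier of thyroid hormone, which also binds retinol-binding protein. The Ttr probe set 1451580_a_at, which had the highest mean, was at 6.63 and 6.47 in the day 0 samples and at 10.81 and 10.94 in the day 3 samples. The days did not overlap, and the difference was 4.32 ± 0.09 (SE), or 20.0-fold (limma adjusted p = 2.2e-10). The other 3 Ttr probe sets started lower and ended higher. Probe set 1455913_x_at of Ttr went from 2.46 and 2.44 to 11.44 and 11.39. Probe set 1454608_x_at of Ttr went from 3.60 and 3.71 to 12.47 and 12.41. Probe set 1459737_s_at of Ttr went from 3.52 and 3.57 to 12.21 and 12.14. All 6 of these day 0 values lay below the first quartile. Their measured differences were 8.97, 8.78 and 8.63 (limma adjusted p of at most 1e-10 over probe sets), and their sizes rest on day 0 levels that may be background. Taken from the day 0 arrays' mean first quartile, 4.31, in place of those levels, the day 3 means stood 7.11, 8.13 and 7.87 higher. The choice of the probe set with the highest mean thus gave the smallest of the 4 Ttr differences, since the 3 others were dim at day 0. The mean of the 4 probe sets gave 7.68. An ending in _x_at or _s_at marks probes that can match more than 1 transcript, and without such probe sets only 1451580_a_at remained for Ttr.

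Rbp4 encodes the carrier of retinol in blood, which travels bound to transthyretin. Its 1 probe set was at 6.36 and 6.16 at day 0 and at 8.16 and 8.38 at day 3. Both day 3 samples were above both day 0 samples, with a difference of 2.01 ± 0.12 (SE), a 4.03-fold rise (limma adjusted p = 2.3e-07). With each array left out in turn the Rbp4 difference was 1.90 to 2.12 and stayed called.

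Afp encodes the main plasma protein of the fetus, a relative of albumin, and is a standard marker of visceral endoderm. The kept Afp probe set, 1416646_at, was at 5.25 and 4.96 at day 0 and at 8.42 and 8.29 at day 3. The days did not overlap, and the difference was 3.25 ± 0.13 (SE), a 9.53-fold rise (limma adjusted p = 1.2e-08). Probe set 1416645_a_at of Afp, listed with the same mRNA record, went from 2.61 and 2.82 to 10.05 and 9.97, a difference of 7.30. Probe set 1436879_x_at of Afp went from 3.03 and 2.20 to 8.54 and 8.29, a difference of 5.80 with the largest gap between day 0 duplicates of any member probe set. All 4 of these day 0 values lay below the first quartile, and the day 3 means stood 5.70 and 4.11 above the day 0 arrays' mean first quartile.

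The remaining 2 Afp probe sets, listed with 1 other sequence record, hardly moved. Probe set 1436880_at of Afp was at 3.71 and 3.72 at day 0 and at 3.55 and 3.81 at day 3, below the first quartile throughout, and was not called (difference -0.03 ± 0.13, SE). Probe set 1436881_x_at of Afp was at 3.62 and 3.50 at day 0 and at 3.81 and 4.31 at day 3, and its difference of 0.50 was just inside the threshold (limma adjusted p = 0.048). Under the alternatives run for it, that call was lost without the intensity trend, after either renewed scaling and without day 0 replicate 1, day 0 replicate 2 or day 3 replicate 2 (adjusted p from 0.051 to 0.32), and also at a threshold of 0.01 and when tested against a log2 difference of 1 (adjusted p = 1). The difference of Afp therefore ran from -0.03 to 7.30 across its 5 probe sets, and the mean of all 5 gave 3.36.

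**Figure D2:**
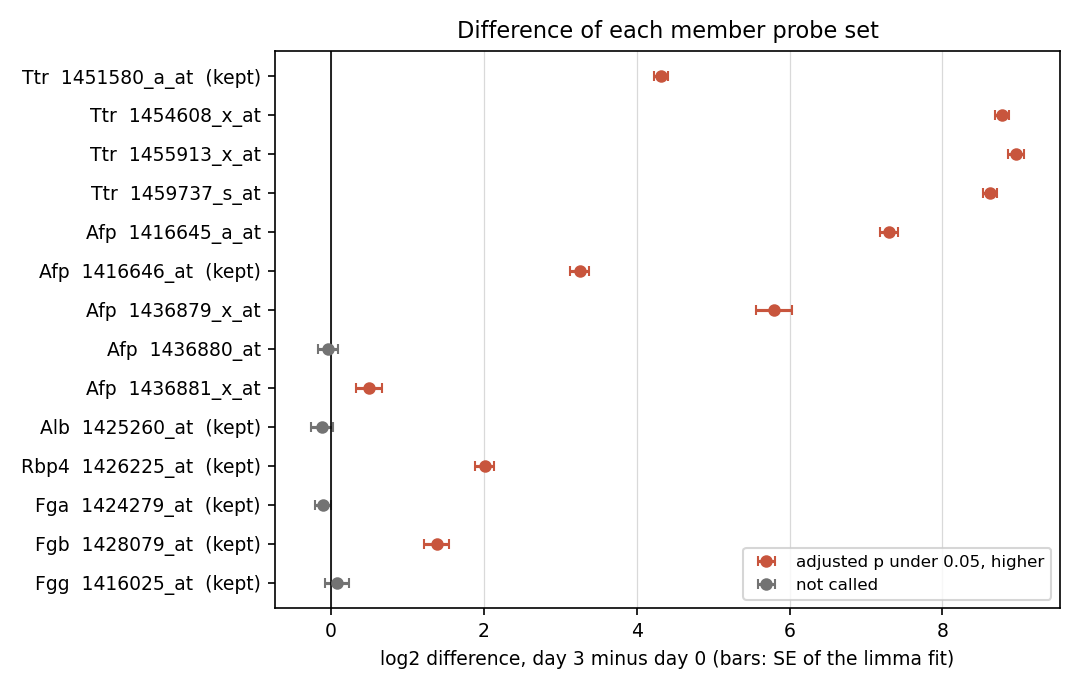
Log2 difference, day 3 minus day 0 (horizontal axis), of each member probe set, with bars for the standard error of the limma fit over all probe sets. Red marks an adjusted p under 0.05 and grey no call. The 3 Ttr probe sets that were not kept lie at 8.63 to 8.97, and the 5 Afp probe sets spread from -0.03 to 7.30.

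Alb lies next to Afp in the same gene cluster and encodes the main plasma protein of the adult. Its 1 probe set was at 5.12 and 4.85 at day 0 and at 4.92 and 4.80 at day 3. The days overlapped, and its difference, -0.12 ± 0.14 (SE), was not called (adjusted p = 0.54 in limma), with a 95% confidence interval from -0.42 to 0.18. By the kept Afp probe set, the difference between days was 3.37 larger for Afp than for Alb. The SE of that value, 0.012, came from 2 Afp minus Alb values per day. It was far below the limma SEs of Afp (0.13) and Alb (0.14) and is no guide to precision. An exact two-sided permutation test over the 4 samples gave p = 0.33, the smallest that 2 against 2 allows.

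The 150 bases before the annotated start of Afp and of Alb are shown because neighbouring genes of the same cluster differed in their change. They were read 5′ to 3′ from RefSeq promoter sequences of build GRCm38.p6, and capitals mark matches, on either strand, to the FOXA-type word TGTTTGC and the C/EBP-type word TTGCNNAA.
Afp (chr5:90490564-90490713, plus strand): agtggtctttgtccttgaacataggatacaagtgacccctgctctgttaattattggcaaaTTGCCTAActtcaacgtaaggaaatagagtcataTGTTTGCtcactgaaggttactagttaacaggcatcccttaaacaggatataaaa
Alb (chr5:90460720-90460869, plus strand): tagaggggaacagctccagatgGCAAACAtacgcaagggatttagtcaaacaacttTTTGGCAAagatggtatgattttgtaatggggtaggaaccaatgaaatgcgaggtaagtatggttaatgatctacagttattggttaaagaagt

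TGTTTGC was present before both genes and in 2.44% of 32851 promoter windows of the same length, with its first base 55 bases before the Afp start and, on the other strand, 128 bases before the Alb start. TTGCNNAA was present before both as well (5.46% of windows), 89 bases before the Afp start and, on the other strand, 94 bases before the Alb start. TATAAA was found before Afp and Rbp4 (7.57% of windows), and CCAAT before Afp and Alb (24.5%). The NR5A-type word TCAAGGACA was found before Afp and no other member, on the other strand and 141 bases before the start (0.134% of windows). This word had been shortened from a longer form that matched Afp alone among the members, so the Afp match was known beforehand. Before none of the 6 members with a window were found TGTTTAC (1.80% of windows), the HNF4-type words CAAAGTCCA (0.271%) and, within it, AAAGTCCA (0.651%), the nuclear receptor word AGGTCA (8.58%), AGATAA (5.65%), ATTGATT (1.43%) or CTTTGAA (2.40%). Matches describe letters in these windows and not binding.

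Fga, Fgb and Fgg encode the 3 chains of fibrinogen, the precursor of fibrin in blood clots, and lie in 1 cluster on chromosome 3. Fgb was at 4.48 and 4.87 at day 0 and at 5.93 and 6.19 at day 3. The days did not overlap, and the difference was 1.38 ± 0.16 (SE), a 2.61-fold rise (limma adjusted p = 3.9e-05). Tested against a log2 difference of 1 instead of 0, Fgb was not called (adjusted p = 0.25), while Ttr, Afp and Rbp4 were. Fga was at 3.17 and 3.15 at day 0 and at 3.04 and 3.07 at day 3, below the first quartile on all 4 arrays. Its days did not overlap, but its difference, -0.11 ± 0.11 (SE), was not called (adjusted p = 0.51 in limma, 95% confidence interval -0.36 to 0.14). Fgg was at 3.97 and 4.36 at day 0 and at 4.17 and 4.31 at day 3, with overlapping days and a difference of 0.08 ± 0.15 (limma adjusted p = 0.74, 95% confidence interval -0.26 to 0.41).

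The day 0 and day 3 values were fully separate for 5 of the 7 members, the 4 called ones and Fga, and for 69.0% of all genes. The difference between days was 1.49 (SE 0.24) larger for Fgb than for Fga and 1.30 (SE 0.062) larger for Fgb than for Fgg, with SEs again from 2 values per day. An exact two-sided permutation test gave p = 0.33 for each, again the smallest that 2 against 2 allows. Since the levels of Fga may be background, a change in that chain could have been missed.

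The 150 bases before Fgb and Fga are shown for the same comparison, from the same RefSeq windows and with the same marking.
Fgb (chr3:83049864-83050013, minus strand): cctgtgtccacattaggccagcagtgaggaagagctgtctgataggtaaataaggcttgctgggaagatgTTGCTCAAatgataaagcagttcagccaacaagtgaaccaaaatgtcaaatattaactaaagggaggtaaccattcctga
Fga (chr3:83026003-83026152, plus strand): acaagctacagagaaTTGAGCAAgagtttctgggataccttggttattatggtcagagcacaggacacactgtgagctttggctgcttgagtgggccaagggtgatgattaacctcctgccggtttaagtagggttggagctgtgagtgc

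Fgb and Fga each held 1 match to TTGCNNAA, with its first base 80 bases before the Fgb start and, on the other strand, 135 bases before the Fga start. Rbp4 had more than 1 window, and the window with TATAAA also held TTGCNNAA, on the other strand and 128 bases before the start. None of the printed words was found in the window of Fgg.

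Chromosome neighbours were taken as the nearest 2 measured genes on each side of each member, in the order of the RefSeq gene table of GRCm38.p6. Outside the set this gave 20 genes, of which 1 was called higher, 4 lower and 15 not called, with differences from -1.93 to 0.35. Afm, which encodes afamin, a plasma protein of the albumin family, follows Afp and was at 6.99 on both days, and the predicted albumin relative Albfm1 had a difference of -0.21 (limma adjusted p = 0.21). Ankrd17 and Gm9958 on the side of Alb were not called either. In the fibrinogen cluster, Lrat, Rbm46os, Plrg1 and Gm10710 were not called, with differences of 0.16, 0.25, -0.02 and -0.15. Beside Ttr, the galactosyltransferase gene B4galt6 fell by 0.88, while the desmoglein genes Dsg1b and Dsg2 and Gm31437 were not called. Beside Rbp4, Cep55, a gene of cell division, fell by 1.93 and Fra10ac1 by 0.35, Ffar4, a fatty acid receptor gene, rose by 0.35, and Pde6c was not called. Around Trf, 1300017J02Rik fell by 0.36, and Rab6b, Srprb and Topbp1 were not called.

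**Figure D3:**
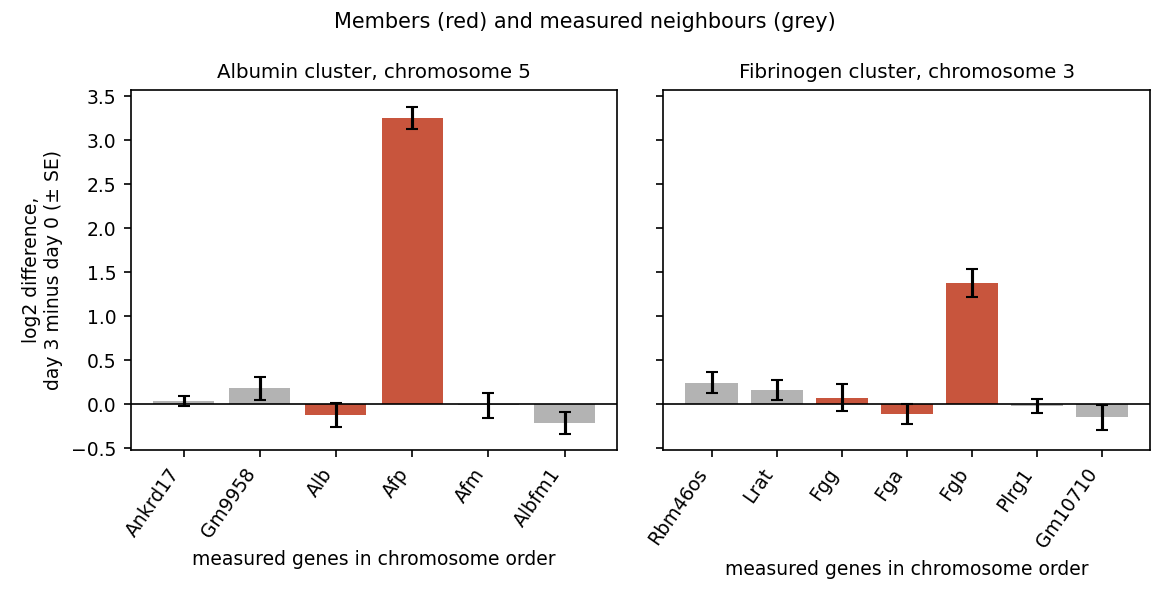
Log2 difference, day 3 minus day 0, with the standard error (bars), of the measured genes in chromosome order around Alb and Afp (left) and around the fibrinogen genes (right). Members are red and other genes grey. Afp (3.25) and Fgb (1.38) stand above the other genes drawn, which lie between -0.21 and 0.25. Rassf6 (2.93), the next measured gene beyond Albfm1, is not drawn.

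Other secreted plasma proteins gave a wider picture of the same class. Of 38 listed, 34 were measured, and 10 rose, 3 fell and 21 were not called, with a median of 0.06. Among the 10, 7 were apolipoprotein genes, led by Apob, the structural protein of lipoproteins (6.79 ± 0.12, SE; 1.09 by its second probe set), and followed by Apoa4 (2.25), Apoc2 (2.02), Apoa1 (2.01), Apom (1.58), Apoa2 (1.46) and Apoe (1.10). The other 3 were the coagulation factor genes F5 (2.62 ± 0.22) and F10 (1.06) and the plasminogen gene Plg (0.40). The second F5 probe set gave 1.27, and the kept one was at 4.02 and 3.91 at day 0, below the first quartile. The other 2 probe sets of F10 were not called. The 3 that fell were the complement inhibitor gene Serping1 (-1.58), Pros1, encoding protein S (-1.21), and Ahsg, encoding fetuin-A (-0.51). The 21 that were not called had differences from -0.21 (Kng1) to 0.27 (Cfb), though a second probe set of Serpinf1 was called higher (0.74). The hepatocyte enzyme list had 10 measured genes, of which 0 rose (0 at an unadjusted p under 0.05), 1 fell (Cps1, -0.53) and 9 were not called, Fbp1 (-0.30) and Cyp2e1 (0.13) among them. Its mean log2 level was 4.62 to 4.69 in the day 0 samples and 4.57 to 4.62 in the day 3 samples, and 4 of the 10 genes were below the first quartile on both arrays of each day.

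Receptors that take up plasma proteins mostly rose, with 6 of 8 higher, 0 lower (1 at an unadjusted p under 0.05) and 2 not called, and a median of 1.38. Cubn, encoding cubilin, which binds albumin and transferrin, rose by 5.86, its partner Amn by 3.49, the adaptor gene Dab2 by 3.69 and Lrp2, encoding megalin, by 1.90, with 1 other probe set not called (-0.21). The 2 that were not called were Asgr1 (0.32) and Fcgrt, which recycles albumin (-0.35).

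Among 9 measured genes of retinol carriage and use, 3 rose, 2 fell and 4 were not called. Cyp26a1, which degrades retinoic acid, rose by 3.21, Crabp2, which carries it to its receptors, by 2.06 and Rdh10, which oxidises retinol, by 1.55. Stra6, the cell surface receptor of retinol-binding protein, was at 5.51 and 5.60 on average at day 0 and day 3 and was not called (limma adjusted p = 0.68), as were Lrat, Dhrs3 and Rbp2. Aldh1a2 (-0.60) and Crabp1 (-0.87) fell. Among 9 measured genes of transferrin and iron handling, 3 rose, 2 fell and 4 were not called. Slc40a1, the iron exporter ferroportin, rose by 2.52, Aco1 by 0.70 and Fth1 by 0.17, while Tfrc, the receptor of transferrin, fell by 1.11 and Ireb2 by 0.23. Another probe set of Aco1 (0.14) and the other probe set of Fth1 (0.08) were not called. Tfr2, Steap3, Hfe and Slc11a2 were not called, although another probe set of Slc11a2 was called lower (-0.45).

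Of 14 measured transcription factors of liver and endoderm, 7 rose, 1 fell and 6 were not called (median 0.32). Foxa2 rose by 2.45, Hnf4a by 1.70 by its kept probe set (2 of its 4 probe sets were called), Foxa3 by 1.37, Sox17 by 1.03, Gata4 by 1.03 with 1 of its 2 probe sets, Zhx2 by 0.57 and Cebpb by 0.31. Nr5a2 fell by 3.17. Gata6 (-0.25), Foxa1 (0.32), Cebpa (0.11) and Onecut1 (0.04) were not called. The other probe sets of Gata6 were not called either (-0.27 and -0.10). The other probe set of Cebpb was not called (0.15). Prox1 was not called by its kept probe set, but another of its probe sets was called higher (0.43), at mean levels below the first quartile. Zhx2 and Zbtb20 are known repressors of Afp in liver, and Zbtb20 had a difference of 0.03 and was not called.

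**Figure D4:**
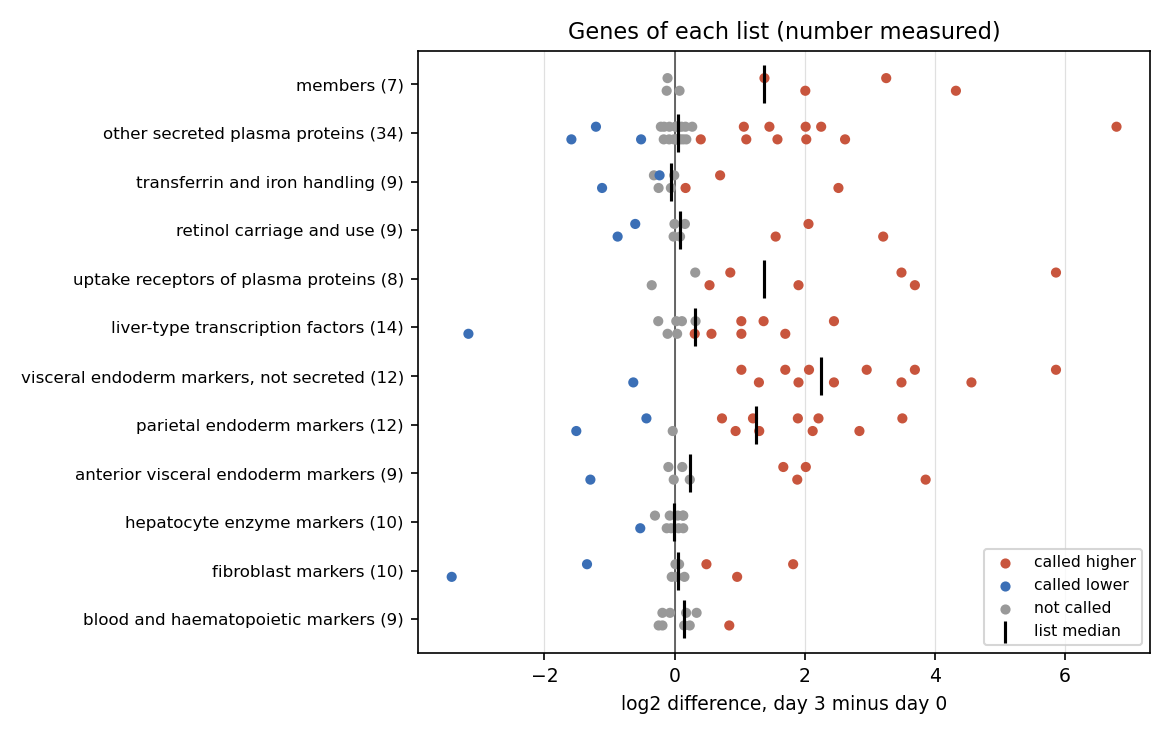
Log2 difference, day 3 minus day 0 (horizontal axis), of every measured gene of each list, with red for called higher, blue for called lower, grey for not called and a black bar for the list's median. Some genes stand in more than 1 list, and the list labelled not secreted holds Ihh, which encodes a secreted signal. The members (median 1.38) and the receptors (1.38) reach farther to the right than the hepatocyte enzymes, none of which was called higher.

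Marker lists were made for some cell types that the samples could hold, but not for stem cells or epiblast. These lists moved as follows, and their part in the members' changes was not tested. Of 12 visceral endoderm markers that are not plasma proteins (Ihh, 1.30, encodes a secreted signal), 11 rose and 1 fell (Rhox5, -0.63), with a median of 2.26. Their mean log2 level was 8.01 to 8.08 in the day 0 samples and 10.56 to 10.60 in the day 3 samples, and Cubn (5.86), Cldn6 (4.56) and Dab2 (3.69) rose most. No marker of that list was below the first quartile on either day. The list shares Cubn, Dab2, Amn and Lrp2 with the receptors, and Hnf4a, Foxa2 and Sox17 with the transcription factors. Of 12 parietal endoderm markers, 9 rose, 2 fell (Nid1, a basement membrane gene, by 1.51 and Thbd by 0.43) and 1, Lamc1, was not called (median 1.25), and their mean level was 8.56 to 8.61 at day 0 and 9.65 to 9.98 at day 3. Of 10 fibroblast markers, 3 rose (Thy1 by 1.82, Dcn by 0.96 and Col1a2 by 0.49), 2 fell (Vim fell by 3.42 and Fn1 fell by 1.34) and 5 were not called (Col1a1, Col3a1, Postn, Lum and Pdgfrb). The other probe set of Dcn (0.07) and the other probe sets of Col1a2 (0.36 and 0.01) were not called. The mean level of the fibroblast markers was 6.34 to 6.35 at day 0 and 6.18 to 6.26 at day 3, and 3 of the 10 were below the first quartile on both arrays of each day. Of 9 blood markers, 1 rose (Cd34, by 0.84), 0 fell and 8 were not called. At an unadjusted p under 0.05, 2 were higher (Cd34 and Tal1) and 0 lower. Tal1 (0.34), Kdr (-0.24), Ptprc and the globin genes were not called by their kept probe sets. The other 2 probe sets of the globin gene Hbb-y were called lower (-0.38 and -0.42), at mean levels below the first quartile. The mean level of the blood markers was 5.02 to 5.13 at day 0 and 5.17 to 5.22 at day 3.

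Likeness in pattern was measured as the Euclidean distance between genes over the 4 array values, each gene centred on its own mean. The 3 genes nearest to Ttr were Jakmip2 (distance 0.14), Fndc3c1 (0.16) and Sall2 (0.22), with differences of 4.44, 4.27 and 4.24. Nearest to Afp were Lpar4 (0.11), Mal2 (0.12) and Efna5 (0.13), nearest to Rbp4 were Ndn (0.014), Spin2c (0.090) and Celf4 (0.11), and nearest to Fgb were St6galnac3 (0.097), Ptprd (0.11) and Tgfbrap1 (0.11). Over 4 arrays in 2 groups such nearness is mostly a difference of like size. None of these 12 genes stood in the lists.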

How the data were processed

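The deposited table held 1 log2 value per probe set and array. Per the submitters' processing notes, the authors used RMA and R 2.13.0. RMA forces equal distributions on the arrays, so a change in total RNA cannot be seen. It includes a background correction, but log2 differences of dim probe sets may still be compressed. The number of arrays limits the precision. Of 45101 probe sets, 64 were controls; through the platform annotation 34945 others had 1 gene symbol and 932 several, and no gene was named from the latter. Differences (day 3 minus day 0) were fitted with limma 3.58.1 in R 4.3.3 (lmFit, eBayes with intensity trend, no covariate), two-sided, with Benjamini-Hochberg adjustment over 18193 genes or 45037 probe sets, called under 0.05. The model had 2 residual degrees of freedom and a prior of 8.02. The procedure was tested on simulated data.

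The members and lists were chosen with earlier results of these data known, so calls are not independent support for the choice. Named genes are all members, the 3 largest absolute differences of each list, counts of 5 or fewer by name, the members' neighbours and the 3 nearest patterns of called members with an absolute difference of at least 1. Other list genes, and the promoter words, were chosen after values were seen. The NR5A-type promoter word was first searched in a longer form, which matched Afp alone among the members, and was shortened after that. Some words searched are not reported here.

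Replicate numbers were not used to pair the samples in the main fit. Deviations of same-numbered arrays had r = -0.017 across genes, which shows no pairing but cannot exclude it. Alternatives were no trend, robust variance, renewed quantile normalization, median centring, genes above the median level, the mean of probe sets, leaving out _s_at and _x_at probe sets, the replicate block, each array left out, a threshold of 0.01, and treat, which tests whether a log2 difference exceeds 1.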

Additional observations from a re-analysis of the deposited data

How the results depend on the processing

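The calls of Ttr, Afp, Rbp4 and Fgb as higher held under every alternative that kept the gene, except that Fgb was not called with treat. Among genes above the median level 2 members were called higher, because Afp and Fgb were not tested there. With the replicate block, 4 members, 10 member probe sets and 3789 genes were called higher, against 4, 10 and 3803 without it, and the block changed no call of a member. Testing against a log2 difference of 1 called 664 genes higher and 472 lower, against 3803 and 3900. Leaving out 1 array called 2908 to 3692 genes higher and 2895 to 3748 lower, 4 members higher and 0 lower each time, and 9 to 10 member probe sets higher. Differences that were not called turned sign without day 0 replicate 1 (Alb 0.013, Fgg -0.12) and with 1 array left out ran from -0.25 to 0.013 for Alb and from -0.12 to 0.27 for Fgg. The mean of probe sets moved Ttr from 4.32 to 7.68. In the lists, genes above the median level alone gave 3 other plasma proteins higher (10 in the main fit), 4 transcription factors (7), 2 anterior visceral endoderm markers (4) and 1 fibroblast marker (3), since fewer genes were tested. Other list counts that changed by over 1.5 times moved by 1 gene. Levels near or under the first quartile, as those of Fga, Fgg and 2 Afp probe sets, limit what can be seen.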

Other observations

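Parietal endoderm, which lines the yolk cavity and makes basement membrane, shares its origin with visceral endoderm. Among its markers, Srgn, encoding a proteoglycan of secretory granules, rose by 3.50 ± 0.08 (SE) at day 3, Plat, a protease that activates plasminogen, by 2.84 ± 0.22 with 1 of its 2 probe sets, and the collagen gene Col4a2 by 2.21 ± 0.09 (limma), while Nid1, encoding the basement membrane protein nidogen, fell by 1.51 and Thbd by 0.43. Of 9 markers of the anterior visceral endoderm, the signalling centre that patterns the epiblast, 4 rose, 1 fell and 4 were not called. Which cells expressed these genes, epiblast or endoderm, was not tested. Lhx1 rose by 3.86 ± 0.18, Otx2 by 2.02 ± 0.07, Fzd8 by 1.89 ± 0.11 with 1 of its 2 probe sets and Dkk1 by 1.67, while Lefty1 fell by 1.29. Cer1, Hhex, Gsc and Hesx1 were not called by their kept probe sets, and the other probe set of Cer1 was called higher (0.67).

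Beyond Albfm1, the next measured gene on the far side of the albumin cluster is Rassf6, a gene of the RAS association domain family. It was looked at after its value was seen, and it rose from 4.73 to 7.67, a difference of 2.93 ± 0.16 (SE, limma adjusted p = 1.8e-07). The 2 measured genes between Afp and Rassf6, Afm and Albfm1, were not called.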
